A study of Mus musculus with 64 samples.

Results

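Nnt and Tmem267 are a pair of genes on mouse chromosome 13 that were selected on their levels, which step between libraries of the same group. They are 2 of the 36332 distinct gene IDs in the deposited table, found by their NCBI gene IDs. The study sequenced polyadenylated RNA in 64 libraries: 3 tissues (liver, skeletal muscle and omental fat) by 2 genotypes, labelled MycKO (here KO) and WT, by 2 ages (5 and 20 months), which makes 12 groups. The KO mice are labelled as a cross of 2 lines of mixed B6.129 background. One carries Gt(ROSA)26Sortm1(cre/ERT2)Tyj, in which the Rosa26 locus drives a tamoxifen-activated Cre in most cell types, and the other carries Myctm2Fwa, a Myc allele that Cre can excise. The strain of the WT mice is labelled C57/B6, with no substrain. Both genotypes are labelled as given 5 daily injections of tamoxifen (75 mg/kg) at weaning, at a weight of 15 g or more. KO and WT therefore differ in strain background, Cre and Myc together, and these cannot be told apart. Each group held 5 libraries at 20 months and 6 at 5 months, except that young KO muscle held 4. No label states that replicates are separate animals, so the spread given here is that between libraries.

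Nicotinamide nucleotide transhydrogenase, the product of Nnt, sits in the inner mitochondrial membrane. It uses the proton gradient to pass electrons from NADH to NADP+, and the NADPH it makes feeds the glutathione and thioredoxin systems that remove hydrogen peroxide in the mitochondrion. The gene is known for a strain difference: C57BL/6J mice carry a deletion of several Nnt exons and make no functional protein, while other C57BL/6 substrains and 129 strains carry the intact gene. The mouse reference genome is that of C57BL/6J, so the deleted exons are not part of it, and a count against it covers the remaining exons. Tmem267 encodes a predicted membrane protein whose function is little described.

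Nnt lies at chr13:119335527-119409257 on the minus strand of GRCm38.p6, the build named in the submitters' processing notes, and Tmem267 at chr13:119488086-119610459 on the plus strand. Paip1, a translation factor that binds poly(A)-binding protein, and 4833420G17Rik lie between them. No annotated RefSeq gene overlapped Nnt. The antisense RNA gene 3110070M22Rik overlapped the first 299 bases of Tmem267 on the other strand and had at most 2.15 CPM in any library. The libraries were made with a directional kit, and the use of strand in counting is not given in the sources used here. GENCODE lists 6 Nnt transcripts, the longest models having 17 exons, and 5 of Tmem267.

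RefSeq gives 2 start windows for Tmem267, from 250 bases before to 50 after a start. They are shown because the Tmem267 means differed between KO and WT in a study of Myc, whose dimers with Max are known to bind the E-box CACGTG. Both windows are on the plus strand of GRCm38.p6.
Tmem267, chr13:119487836-119488135: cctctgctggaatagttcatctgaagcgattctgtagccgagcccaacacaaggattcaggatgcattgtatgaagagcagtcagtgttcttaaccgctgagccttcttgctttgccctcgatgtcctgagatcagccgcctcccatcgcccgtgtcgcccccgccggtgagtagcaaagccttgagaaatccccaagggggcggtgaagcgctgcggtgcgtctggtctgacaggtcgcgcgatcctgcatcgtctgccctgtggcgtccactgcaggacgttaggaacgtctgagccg
Tmem267, chr13:119488223-119488522: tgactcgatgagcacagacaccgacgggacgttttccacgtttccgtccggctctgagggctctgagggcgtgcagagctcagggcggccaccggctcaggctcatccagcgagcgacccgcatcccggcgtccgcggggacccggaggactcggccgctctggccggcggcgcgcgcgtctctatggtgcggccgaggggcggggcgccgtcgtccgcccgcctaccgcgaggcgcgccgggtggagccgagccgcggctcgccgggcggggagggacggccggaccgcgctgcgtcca
CACGTG, which reads the same on both strands, was in neither window, so no letters are in capitals. It was in 7.15% of the 32851 RefSeq windows of 300 bases. G and C made up 58.7% and 76.0% of the 2 windows, against a median of 52.7% over all windows. Nnt was matched to no window.

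The libraries held 15.4 to 28.5 M reads on genes. Myc, the targeted gene, was lower in KO at 5 months: 5.76 ± 2.91 against 17.7 ± 5.11 CPM in adipose tissue and 2.59 ± 1.06 against 19.6 ± 10.3 CPM in liver (SD, n = 6 each). The limma adjusted p was 0.0170 in adipose tissue, and 0.135 without the 4 libraries with epididymis markers, with log2 differences of -1.52 and -1.10. It was 0.00093 in liver, and 0.0733 without the Xist libraries, with log2 differences of -2.38 and -2.20. Young muscle had 10.2 ± 5.21 CPM of Myc in KO (n = 4) and 29.1 ± 27.1 CPM in WT (n = 6), with overlapping libraries. At 20 months, where no difference was called, the KO and WT means of Myc were 2.11 and 5.87 CPM in liver, 5.98 and 7.91 CPM in muscle, and 7.36 and 11.97 CPM in adipose tissue (n = 5 each). Markers of adipocytes, hepatocytes and skeletal muscle were high in the tissue each defines. The muscle library W18S42 also had 2599 CPM of hepatocyte markers. The adipose libraries K18F27 and K5F5118 had 705 and 297 CPM of them, against group medians of 17.5 and 9.07 CPM. Their part in the values of these libraries was not tested. Another 4 adipose libraries, all at 5 months (K5F4284, K5F5218, K5F5248 and W5F5299), had 958 to 7233 CPM of epididymis markers. The other 18 adipose libraries had at most 0.958 CPM of these. At 5 months, 12 libraries (2 in each group) had more Xist than summed Y-linked transcripts and are called Xist libraries here. All 20-month libraries had the reverse, so the age contrasts also set groups with and without such libraries side by side.

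Nnt in liver fell into a low and a high set of libraries. The deposited unit, called CPM in the table, is a read signal scaled per library. WT liver at 5 months had 87.3, 90.5, 102, 151, 176 and 189 CPM of Nnt, and WT liver at 20 months had 93.8, 96.8, 233, 248 and 252 CPM. In KO liver, Nnt ranged from 67.8 to 112 CPM (median 81.1, n = 6) at 5 months and from 77.6 to 107 CPM (median 89.6, n = 5) at 20 months. Every KO library was below the 6 high libraries, which were all WT. The group means were 133 ± 44.98 CPM in WT and 84.6 ± 16.3 CPM in KO at 5 months (SD, n = 6 each), and 185 ± 82.2 and 92.7 ± 12.6 CPM at 20 months (n = 5 each). In whole tissue, fewer cells that make an RNA and less of that RNA per cell cannot be told apart.

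Muscle showed the same layout with fewer high libraries. WT muscle had 34.5, 49.8, 58.4, 68.8, 136 and 228 CPM of Nnt at 5 months. At 20 months the WT muscle libraries had 36.9, 39.6, 46.6, 151 and 184 CPM. KO muscle had 42.1, 46.7, 50.9 and 86.9 CPM at 5 months and 45.9 to 57.4 CPM (median 49.6, n = 5) at 20 months, so the KO library K5S4285 stood between the other KO libraries and the high WT ones. The means were 96.0 ± 73.8 CPM in WT (n = 6) and 56.7 ± 20.5 CPM in KO (n = 4) at 5 months, and 91.6 ± 70.3 and 50.1 ± 4.45 CPM at 20 months (n = 5 each). The WT muscle libraries were spread more widely than the KO ones at each age.

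Adipose tissue had the lowest Nnt values on the deposited scale. WT adipose libraries had 12.6, 13.8, 14.5, 22.9, 32.1 and 53.7 CPM at 5 months and 14.7, 15.7, 29.5, 32.0 and 34.4 CPM at 20 months. KO adipose libraries ranged from 8.57 to 16.3 CPM (median 13.6, n = 6) at 5 months and from 10.8 to 13.4 CPM (median 12.4, n = 5) at 20 months. At 20 months every KO library was below every WT library, and at 5 months the genotypes overlapped. The share of all genes without overlap at 20 months was not computed. Limma, by another and stricter measure, called 0% of all genes there, and 321 of 14286 had an unadjusted p under 0.05. Neither measure says how rare such a lack of overlap is. The means were 24.9 ± 15.9 CPM in WT and 12.9 ± 2.87 CPM in KO at 5 months (n = 6 each), and 25.3 ± 9.35 and 12.2 ± 0.988 CPM at 20 months (n = 5 each). The library W5F5299, at 22.9 CPM, is among those with epididymis markers, whose part in its value was not tested.

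**Figure D1:**
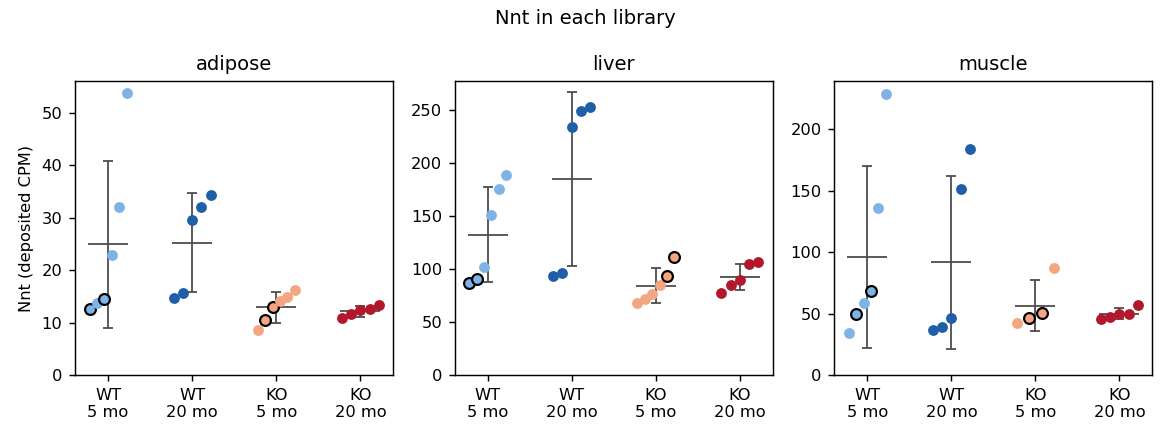
Nnt in every library of the 12 groups, in deposited CPM (vertical axis), with the group mean and SD as bars and Xist libraries outlined in black. All KO libraries lie below the high WT libraries, and the WT groups reach up to 53.7 CPM in adipose tissue, 252 CPM in liver and 228 CPM in muscle.

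The layout was measured as the widest space between neighbouring values on the log2(CPM + 1) scale that left at least 3 libraries on each side. Since the genes were selected on this pattern, it is given as a description. In liver the space for Nnt ran from 112 CPM in K5L5118 (counting interval 107 to 117, exact 95% Poisson) to 151 CPM in W5L5005 (144 to 158). It left 6 high libraries, 3 of 6 WT at 5 months, 3 of 5 WT at 20 months and no KO library. In muscle it ran from 86.9 CPM in K5S4285 (82.6 to 91.3) to 136 CPM in W5S5007 (130 to 142). That left 4 high libraries, 2 WT of each age. In adipose tissue it ran from 16.3 CPM in K5F5218 (15.0 to 17.8) to 22.9 CPM in W5F5299 (21.1 to 24.7). It left 6 high libraries, 3 WT of each age. At each edge the counting intervals did not overlap, but they cover counting error only. None of the 12 Xist libraries was high. No KO library was high with or without Xist, so only the WT libraries among them bear on this. The codes of those WT libraries end in the same few numbers in each tissue, so they may not be separate observations. A link between Xist and the side of Nnt was not tested.

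The width is given beside that of all genes tested, as a description. It was 0.64 (log2) in muscle, where 1.73% of 13237 genes had a wider space. It was 0.43 in liver, where 4.69% of 12924 genes had a wider one, and 0.46 in adipose tissue, where 9.78% of 14286 did. Within the high adipose set, W5F5005 (53.7 CPM) stood farther above the next library (34.4 CPM) than the high set stood above the low one.

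Tmem267 was lower in KO than in WT on average in all tissues and at both ages. WT muscle had 14.7, 18.6, 20.6, 34.5, 44.7 and 83.8 CPM at 5 months and 19.6, 22.3, 22.3, 32.9 and 48.05 CPM at 20 months. KO muscle had 2.99, 7.99, 12.4 and 13.8 CPM at 5 months and 8.78, 12.5, 14.4, 14.5 and 16.0 CPM at 20 months. Every KO muscle library was below every WT muscle library of its age. The share of all genes whose groups did not overlap was not computed, so this is a description. Limma, by another and stricter measure, called 0% (5 months) and 0.0302% (20 months) of all genes. At an unadjusted p under 0.05 (limma) there were 543 and 1821 of 13237. Neither measure says how rare such a lack of overlap is. The means were 36.2 ± 25.9 CPM in WT (n = 6) and 9.29 ± 4.87 CPM in KO (n = 4) at 5 months, and 29.02 ± 11.8 and 13.2 ± 2.78 CPM at 20 months (n = 5 each).

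In liver the 2 genotypes overlapped. WT liver had 9.78, 12.2, 21.96, 22.7, 24.7 and 32.5 CPM of Tmem267 at 5 months and 10.5, 19.3, 25.4, 29.1 and 40.02 CPM at 20 months. KO liver had 3.05, 3.47, 6.70, 7.003, 9.48 and 11.97 CPM at 5 months and 7.29, 7.93, 12.5, 17.6 and 25.1 CPM at 20 months. At 5 months 5 of 6 WT libraries were above every KO library, and at 20 months 3 of 5 were. The means were 20.6 ± 8.39 and 6.95 ± 3.43 CPM at 5 months (n = 6 each) and 24.9 ± 11.0 and 14.1 ± 7.41 CPM at 20 months (n = 5 each), WT given first.

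Adipose tissue had the lowest Tmem267 values on the deposited scale. WT adipose libraries ranged from 4.88 to 11.7 CPM (median 8.08, n = 6) at 5 months and had 4.91, 6.67, 7.27, 10.4 and 10.5 CPM at 20 months. KO adipose libraries ranged from 1.39 to 7.80 CPM (median 4.07, n = 6) at 5 months and had 2.28, 6.37, 8.71, 9.76 and 11.0 CPM at 20 months. The groups overlapped at both ages. The means were 8.35 ± 2.58 CPM in WT and 4.44 ± 2.19 CPM in KO at 5 months (n = 6 each), and 7.95 ± 2.44 and 7.62 ± 3.43 CPM at 20 months (n = 5 each). The lowest value, 1.39 CPM in K5F5118, rests on 32 reads (0.948 to 1.96, exact 95% Poisson).

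**Figure D2:**
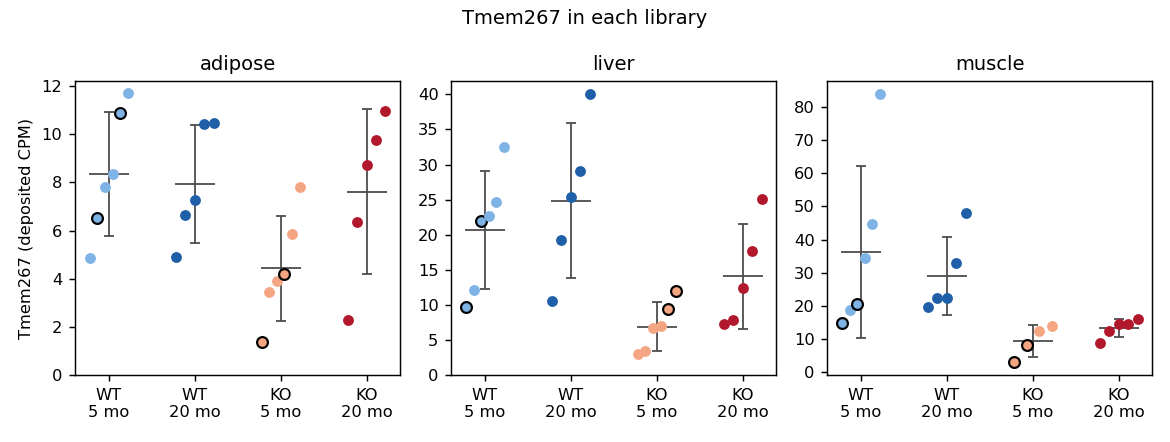
Tmem267 in every library of the 12 groups, in deposited CPM (vertical axis), with the group mean and SD as bars and Xist libraries outlined in black. In muscle every KO library is below every WT library of its age, while in liver and adipose tissue the genotypes overlap. The share of all genes without overlap was not computed.

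The widest space of Tmem267 was 0.54 (log2) in muscle, from 22.3 to 32.9 CPM, with 5 WT and no KO libraries above it. In liver it was 0.47, from 12.5 to 17.6 CPM, with 8 WT and 2 KO libraries above it. Wider spaces were seen in 2.80% of the genes tested in muscle and in 3.74% of those in liver. In adipose tissue it was 0.22, from 4.91 to 5.87 CPM, and 44.2% of genes had a wider one, so the adipose values of Tmem267 show no step that sets the gene apart from most genes.

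The values of the pair, both selected on their steps, were set side by side as a description. In liver the 6 high-Nnt libraries were among the 10 above the Tmem267 space, and in muscle the 4 high-Nnt libraries were among the 5 above it. The fifth muscle library was W5S5299. In adipose tissue 15 of 22 libraries lay above the Tmem267 space, the 6 high-Nnt libraries among them, so little can be read from that tissue. The Pearson r of the 2 genes was 0.64 over the 64 libraries, on deviations of log2(CPM + 1) from the tissue mean. It was 0.56 on deviations from the means of the 12 groups, 0.72 in liver alone (n = 22), 0.65 in muscle alone (n = 20) and 0.54 in adipose tissue alone (n = 22). The 2 genes share libraries and scaling, so these r are descriptions.

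The mean of both genes was lower in KO than in WT in each tissue at each age. On the log2(CPM + 1) scale, KO minus WT for Nnt was -0.73 (SE 0.29) at 5 and -0.92 (SE 0.31) at 20 months in adipose tissue. In liver it was -0.59 (SE 0.25) and -0.86 (SE 0.27), and in muscle -0.50 (SE 0.47) and -0.52 (SE 0.47). For Tmem267 it was -1.76 (SE 0.41) and -1.02 (SE 0.40) in muscle, -1.46 (SE 0.35) and -0.79 (SE 0.39) in liver, and -0.84 (SE 0.31) and -0.14 (SE 0.34) in adipose tissue. Without the Xist libraries, of which both in WT liver were low in Nnt, the liver difference of Nnt at 5 months was -0.99. Single libraries carried much of the muscle difference of Nnt, which was -0.19 at 5 months without W5S5004 and -0.18 at 20 months without W18S66. KO minus WT of Tmem267 in adipose tissue at 20 months was 0.18 without K18F28. Without the libraries with epididymis markers, the adipose differences at 5 months were -0.95 for Nnt and -1.24 for Tmem267.

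Neither gene was among those called in any of the 12 comparisons (limma, Benjamini-Hochberg adjusted p under 0.05), nor by edgeR. At an unadjusted p under 0.05, Nnt stood in 4 of the 12 and Tmem267 in 5 by either tool. By limma, 321 to 4603 of all 14286 tested genes did in an adipose comparison. In liver 750 to 3301 of 12924 did, and in muscle 543 to 4654 of 13237. The share of all tested genes called for KO against WT was 0.105% at 5 and 0% at 20 months in adipose tissue, 0% and 0.0302% in muscle, and 0.0696% and 0.0232% in liver. For 20 against 5 months it was 10.8% in WT and 14.2% in KO adipose tissue, 7.19% and 2.99% in liver, and 18.6% and 5.57% in muscle. With members selected on these values, the counts describe the pair and test nothing.

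The Nnt values of the 2 ages overlapped in every tissue and genotype. On the log2(CPM + 1) scale, 20 minus 5 months in WT was 0.13 (SE 0.30) in adipose tissue, 0.41 (SE 0.26) in liver and -0.11 (SE 0.45) in muscle. In KO it was -0.06 (SE 0.30), 0.14 (SE 0.26) and -0.12 (SE 0.49). Tmem267 in KO was higher on average at 20 months, by 0.64 (SE 0.33), 0.91 (SE 0.37) and 0.61 (SE 0.43) in the same order of tissues, with overlapping ages. In WT its differences were -0.06 (SE 0.33), 0.24 (SE 0.37) and -0.13 (SE 0.39). In muscle the KO difference of Tmem267 was -0.01 without the Xist libraries, which were the lowest at 5 months.

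The codes of the 5-month libraries end in numbers that recur between tissues, and the side of Nnt was compared between libraries with the same number. Of the 12 numbers found in 2 or 3 tissues, 6 are KO, and these are on the low side throughout because no KO library was high. Of the 6 WT numbers, 5 had Nnt on the same side in each tissue, 2 of them on the high side. W5L5004 and W5S5004 were high, at 176 CPM in liver and 228 CPM in muscle, as were W5F5005 and W5L5005, at 53.7 CPM in adipose tissue and 151 CPM in liver. The WT libraries ending in the numbers of W5L5041, W5L5042 and W5L5277 were low in all 3 tissues. The exception was a WT number that was high in W5F5299 (22.9 CPM) and W5L5299 (189 CPM) and low in W5S5299 (58.4 CPM). Tmem267 was above its widest space in these 3 libraries, at 8.35, 22.7 and 44.7 CPM. W5S5299 held 131 CPM of epididymis markers, against at most 1.83 CPM in the other muscle libraries, and their part in its Nnt value was not tested. For Tmem267, 8 of the 12 numbers kept their side. The labels do not say that a number stands for an animal, and the 20-month numbers do not recur between tissues.

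**Figure D3:**
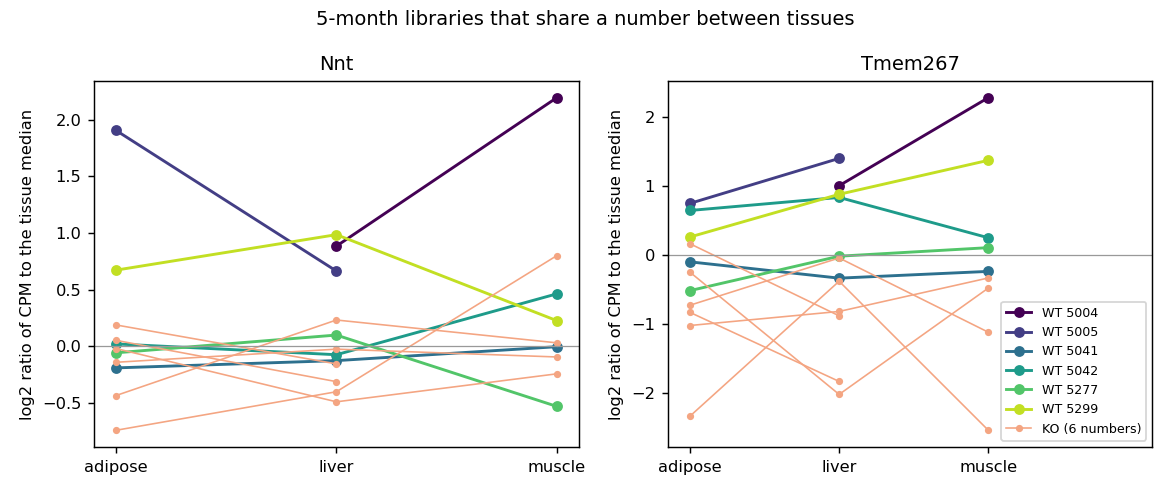
Nnt (left) and Tmem267 (right) in the 5-month libraries whose number occurs in more than 1 tissue, as the log2 ratio of CPM to the median of the tissue, with a line per number. W5L5004 and W5S5004 are high for both genes, while the line of W5L5299 drops from 189 CPM of Nnt in liver to 58.4 CPM in muscle.

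Nnt was highest in liver and lowest in adipose tissue. On the log2(CPM + 1) scale, liver minus adipose tissue at 5 months was 2.49 in WT and 2.63 in KO, with pooled SDs of 0.66 and 0.29. Muscle minus adipose tissue was 1.79 in WT and 2.02 in KO, with pooled SDs of 0.90 and 0.39. Liver and muscle, neighbours in this order, differed by 0.70 in WT, which is within their pooled SD of 0.78, and by 0.61 in KO, above a pooled SD of 0.37. Tmem267 had the order muscle, liver, adipose tissue in both genotypes. Muscle minus adipose tissue was 1.78 (pooled SD 0.71) in WT and 0.87 (pooled SD 0.76) in KO. Liver lay between them, within the spread of muscle in both genotypes (-0.63 and -0.33, pooled SDs 0.78 and 0.77) and, in KO, of adipose tissue (0.53, pooled SD 0.65).

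These levels depend on the scale, since the deposited columns sum to 0.529 to 0.753 M in adipose tissue and to at least 1.08 M in liver and muscle. On reads divided by all reads on genes of the library, a scale chosen after the data were seen, Nnt kept its order, with liver minus adipose tissue of 1.38 in WT and 1.504 in KO. Tmem267 in KO was then lower in liver than in adipose tissue, by -0.43 in place of 0.53, and its liver and adipose levels in WT differed by 0.10 in place of 1.15.

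The neighbours of the pair on chromosome 13 were then examined, 10 protein-coding genes on each side and the 2 between. Of these 22 genes, 15 passed the filter in adipose tissue and 13 each in liver and muscle. They were Mocs2, Itga1, Pelo, Parp8, Emb and Mrps30 on the Nnt side, Paip1 and 4833420G17Rik between, and Hmgcs1, Nim1k, Zfp131 and Gm46390 beyond Tmem267, with Isl1 and Fgf10 in adipose tissue, Itga2 in liver, and Ccl28 in adipose tissue and muscle. None was called for KO against WT in any tissue or age by limma or edgeR, where limma called 0% to 0.105% of all genes. At an unadjusted p under 0.05 there were 1 and 1 in adipose tissue (5 and 20 months), 0 and 1 in liver, and 2 and 3 in muscle. Over all tested genes there were 1692 and 321 of 14286, 897 and 750 of 12924, and 543 and 1821 of 13237, in that order. The median difference of the neighbours lay between -0.19 and 0.06 (log2) over the 6 comparisons, and that of all tested genes between -0.04 and 0.01.

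Paip1 and 4833420G17Rik, which lie between the pair, had no difference called between KO and WT. Paip1 in liver averaged 94.3 ± 6.40 CPM in WT and 92.8 ± 8.48 CPM in KO at 5 months (n = 6 each), and 92.6 ± 19.2 and 92.8 ± 12.97 CPM at 20 months (n = 5 each). Its r with Nnt was -0.15 over the 64 libraries, and that of 4833420G17Rik was -0.14, on deviations from the tissue mean. KO minus WT of both genes lay between -0.16 and 0.12 (log2) in all 6 comparisons.

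Ccl28, an epithelial chemokine gene and the next gene after Tmem267, had few reads in muscle, where its 4 highest values were in libraries above the Tmem267 space. WT muscle had 0.575, 0.621, 0.892, 1.17, 2.18 and 6.01 CPM at 5 months, the highest in W5S5004 and the next in W5S5299. At 20 months WT muscle had 0.457, 0.870, 1.09, 2.90 and 3.38 CPM, the upper pair being W18S66 and W18S41. Those 4 libraries were all above the Tmem267 space, while the fifth library above it, W5S5007, had 1.17 CPM of Ccl28. KO muscle had at most 1.12 CPM. The r with Tmem267 in muscle was 0.85 (n = 20), and with Nnt 0.80. In adipose tissue these r were 0.31 and 0.32 (n = 22), and the highest Ccl28 value of the series, 28.2 CPM, was in K5F5218. That library had 987 CPM of epididymis markers, whose part in the value was not tested. K5F4284 and K5F5248, of the same group, had more of these markers (7233 and 4396 CPM) and less Ccl28. The Ccl28 median of the group was 0.774 CPM.

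**Figure D4:**
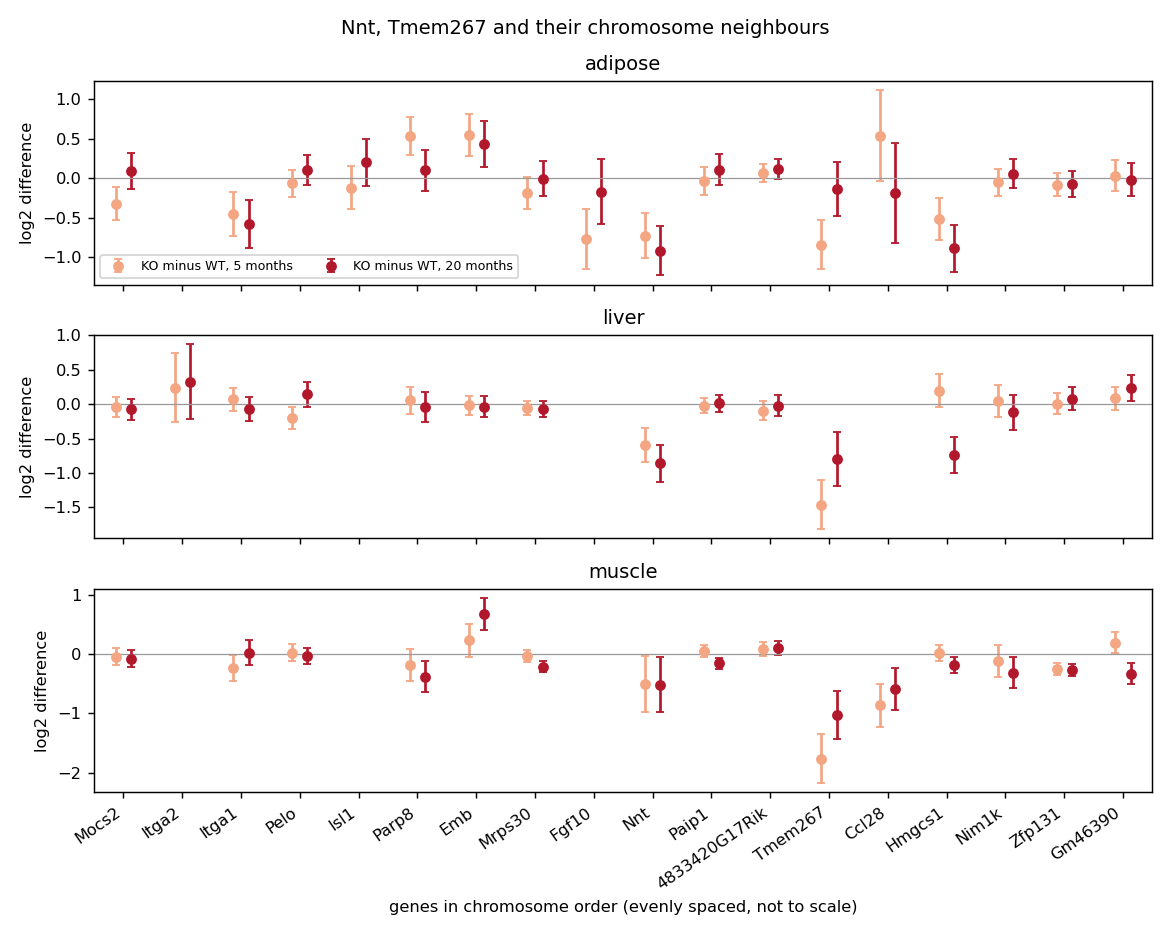
KO minus WT on the log2(CPM + 1) scale (vertical axis, with SE) for Nnt, Tmem267 and those neighbours that passed the filter, in chromosome order, at 5 and 20 months. Nnt and Tmem267 are below 0 in all tissues at both ages, while Paip1 and 4833420G17Rik between them stay within -0.16 to 0.12.

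With age, the share of neighbours called was 13.3% in WT and 13.3% in KO adipose tissue (2 of 15 each), beside 10.8% and 14.2% of all genes, and 7.69% in WT liver (1 of 13), beside 7.19%. These shares are near those of all genes. None of the 13 was called in KO liver by limma or edgeR, beside 2.99% of all genes. At an unadjusted p under 0.05 there were 0, beside 2484 of all 12924 tested genes. In muscle 5 of 13 (38.5%) were called in WT and 2 of 13 (15.4%) in KO, beside 18.6% and 5.57%, and leaving out 1 library gave 2 to 7 in WT. Itga1, an integrin subunit that binds collagen, rose in adipose tissue in WT (log2 difference 2.19, adjusted p = 8.73e-05, limma) and KO (2.06, adjusted p = 0.000269), and in muscle in WT (0.89, adjusted p = 0.00836) and KO (1.15, adjusted p = 0.00902). Hmgcs1, an enzyme of cholesterol synthesis, rose in WT adipose tissue (1.06, adjusted p = 0.0228), liver (1.26, adjusted p = 0.00492) and muscle (0.37, adjusted p = 0.0461). Its rise in muscle was not called after TMM scaling or by edgeR. Emb, an adhesion molecule, fell by 0.92 in KO adipose tissue (adjusted p = 0.0346, limma) and by 0.94 in WT muscle (adjusted p = 0.0200). Zfp131, a zinc finger gene, rose in muscle of both genotypes (0.40 in WT and 0.38 in KO), and Parp8 rose in WT muscle (0.74), a call that edgeR did not make. Without the Xist libraries, which leaves fewer libraries, 6 of these calls were lost. Of these, Itga1 (1.14) and Zfp131 (0.47) in KO muscle, Emb in WT muscle (-1.02) and Hmgcs1 in WT adipose tissue (0.90) kept differences of similar size. Parp8 (0.53) and Hmgcs1 (0.25) in WT muscle had smaller ones.

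A further 4 genes known to vary in expression or copy number among C57BL/6 substrains were looked at library by library. Ide, which encodes insulin-degrading enzyme, was lower in the high-Nnt than in the low-Nnt WT libraries of each tissue at 5 months. In liver it was 113 CPM in W5L5004, 97.6 CPM in W5L5005 and 160 CPM in W5L5299, the high-Nnt libraries. The low-Nnt libraries W5L5041, W5L5042 and W5L5277 had 253, 250 and 196 CPM of Ide. In muscle it was 158 CPM in W5S5004 and 140 CPM in W5S5007, against 182 to 305 CPM in the low-Nnt WT libraries of that age. In adipose tissue it was 35.1 to 40.3 CPM in the 3 high-Nnt and 55.0 to 64.1 CPM in the 3 low-Nnt libraries. WT liver at 20 months was not ordered in this way: the high-Nnt libraries W18L01, W18L03 and W18L04 had 207, 121 and 269 CPM of Ide, and the low-Nnt libraries W18L02 and W18L05 had 176 and 259 CPM. In WT muscle at 20 months the lowest and the highest Ide, 254 CPM in W18S42 and 384 CPM in W18S72, were both in low-Nnt libraries. In WT adipose tissue of that age the lowest, 42.7 CPM, was in the high-Nnt library W18F23. The highest there, 90.6 CPM, was in the low-Nnt library W18F25. Over the 64 libraries the r of Ide with Nnt was -0.13 on deviations from the tissue mean. The 5-month order is a description, since Nnt was selected on its steps. Numbers recur between the libraries of the 3 tissues, so the tissues may not be separate observations. The low-Nnt libraries with the numbers of W5L5041 and W5L5042 were Xist libraries in each tissue, and no high-Nnt library was. The part of this in the Ide values was not tested.

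Fgfbp3, which lies near Ide, Entpd4, a nucleotide-hydrolysing enzyme gene, and Wdfy1, an endosomal adaptor gene, had r of -0.18, -0.01 and -0.08 with Nnt and 0.02, 0.27 and 0.02 with Tmem267 over the 64 libraries. None of the 4 genes was called for KO against WT by limma, and 1 stood at an unadjusted p under 0.05 over the 6 comparisons. That was in liver at 20 months, where 750 of all 12924 tested genes did. Wdfy1 in liver rose with age, from 8.53 ± 1.56 (n = 6) to 12.97 ± 1.77 CPM (n = 5) in WT (log2 difference 0.56, adjusted p = 0.0256, limma) and from 8.55 ± 1.70 to 13.5 ± 2.76 CPM in KO (0.60, adjusted p = 0.0315). The WT call was lost without the Xist libraries, with a difference of 0.49.

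Nnt and Tmem267 were both selected on their steps between these libraries, so their rank for each other is a description and tests nothing. The genes most like Nnt over the 64 libraries, among 11329 others that passed the filter in all tissues, were led by Tmem267 (r 0.64). Dolpp1 (r 0.48), which encodes a dolichyl pyrophosphate phosphatase, Gt(ROSA)26Sor (0.45), Ttll12 (0.44) and Txnrd3 (0.44), a thioredoxin-glutathione reductase gene, followed. The lowest r were those of Plac9b (-0.55), Cxcl16 (-0.45), a chemokine gene, and Ints12 (-0.45). Nnt likewise led the genes most like Tmem267 (0.64), before Gt(ROSA)26Sor (0.54), Kat2a (0.53), a histone acetyltransferase gene, Pigw (0.51) and Amd1 (0.51), an enzyme of polyamine synthesis. Dynlt1b (-0.58), Plac9b (-0.52) and Pvt1 (-0.52), the neighbour of Myc, had the lowest. Plac9b and Dynlt1b have near-identical copies in the genome, between which reads may be split.

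Some of these r were near 0 once the group means were taken out. Gt(ROSA)26Sor, the locus that carries the Cre in KO mice, averaged 6.38 ± 2.08 CPM in WT and 1.99 ± 0.602 CPM in KO liver at 5 months (n = 6 each). On deviations from the 12 group means, its r fell to 0.02 with Nnt and 0.02 with Tmem267. Under the same change Kat2a had 0.18 and Pvt1 -0.10 with Tmem267, while Tmem267 kept 0.56 with Nnt, Dolpp1 0.47 and Plac9b -0.45.

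The remaining enzymes around mitochondrial NADPH were covered by 6 lists with 44 genes in all, of which all 44 were above the filter in adipose tissue, 43 in muscle and 41 in liver. Between genotypes, 1 of the 44 genes was called in young adipose tissue, beside 0.105% of all genes, and none in the other 5 comparisons, where 0% to 0.0696% of all genes were called. Me2, the mitochondrial malic enzyme and another source of NADPH, had 17.9 ± 3.83 CPM in young KO and 28.1 ± 3.88 CPM in young WT fat (SD, n = 6 each), with a log2 difference of -0.64 (SE 0.13, adjusted p = 0.0484, limma). It was not called by edgeR (adjusted p = 0.0876), after TMM scaling (0.0921), with a pseudocount of 0.1 (0.0525) or without the libraries with epididymis markers (0.135). The absence of calls in those 5 comparisons held for limma and edgeR. The counts at an unadjusted p under 0.05 were 10 and 1 in adipose tissue (5 and 20 months), 3 and 1 in liver, and 0 and 9 in muscle. Over all tested genes they were 1692 and 321 of 14286, 897 and 750 of 12924, and 543 and 1821 of 13237, in that order. The median difference over the lists was -0.19 in young and 0.07 in old adipose tissue, -0.04 and 0.04 in liver, and -0.02 and -0.16 in muscle. The median over all tested genes lay between -0.04 and 0.01 in these comparisons.

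In WT adipose tissue, 6 of 44 list genes (13.6%) were called with age, beside 10.8% of all genes. NAD synthesis genes Nmnat3 and Nampt fell by 0.83 (adjusted p = 0.00971, limma) and 0.78 (adjusted p = 0.0360). The mitochondrial peroxiredoxin Prdx3 and the mitochondrial thioredoxin Txn2 fell by 0.77 (adjusted p = 0.0165) and 0.64 (adjusted p = 0.0487). Sod1, the cytosolic superoxide dismutase, fell by 1.18 (adjusted p = 0.0324). Slc25a40, a mitochondrial carrier tied to glutathione import, rose by 0.61 (adjusted p = 0.0188). Without the Xist libraries, which leaves fewer libraries, all 6 calls were lost (adjusted p from 0.0560 to 0.144), with differences of -0.68 for Nmnat3, -0.66 for Nampt, -0.61 for Prdx3, -0.61 for Txn2, -0.91 for Sod1 and 0.51 for Slc25a40. Without the libraries with epididymis markers, 16 list genes were called. The calls over all genes moved in the same way. Of 14286 genes, 1539 were called in the main fit, 739 without the Xist libraries and 3459 without those with epididymis markers.

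In WT liver, 5 of 41 list genes (12.2%) were called with age, beside 7.19% of all genes. Among the cytosolic NADPH sources, Aldh1l1, the folate enzyme 10-formyltetrahydrofolate dehydrogenase, fell by 0.86 (adjusted p = 0.0250, limma) and Mthfd1 by 0.40 (adjusted p = 0.0246). Glutathione reductase (Gsr) fell by 0.54 (adjusted p = 0.0210) and Prdx5 by 0.67 (adjusted p = 0.0311), while Nmrk1, a nicotinamide riboside kinase, rose by 0.68 (adjusted p = 0.0165). Aldh1l1 and Mthfd1 were not called without the Xist libraries, with differences of similar size (-0.81 and -0.37). In WT muscle, 4 of 43 (9.30%) were called, beside 18.6% of all genes. Malic enzyme Me1 rose by 0.38 (adjusted p = 0.0109), the mitochondrial NAD kinase Nadk2 by 0.35 (adjusted p = 0.0343) and Slc25a40 by 0.59 (adjusted p = 0.00741), and Pgd, of the pentose phosphate pathway, fell by 0.44 (adjusted p = 0.0329). Without the Xist libraries these 4 had adjusted p from 0.0508 to 0.0960, with differences of 0.32 for Me1, 0.38 for Nadk2, 0.48 for Slc25a40 and -0.44 for Pgd. In KO adipose tissue 2 of 44 (4.55%) were called with age, beside 14.2% of all genes. They were Slc25a40 and Me2, both higher at 20 months and neither called after TMM scaling or by edgeR. In KO liver and muscle none was called by limma or edgeR, beside 2.99% and 5.57% of all genes. At an unadjusted p under 0.05 there were 7 and 8, beside 2484 of 12924 and 3386 of 13237 tested genes.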

How the data were processed

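Messenger RNA from 64 mouse tissue libraries was sequenced after poly-T bead purification with a directional kit, per the labels' protocols. The authors deposited 1 table made with CLC Genomics, per the file headers, whose values are named CPM. They are treated as a signal scaled per library, since the column sums of the deposited signal differed between tissues (0.529 to 0.753 M in adipose tissue, at least 1.08 M in the others). The build is GRCm38.p6 (mm10), per the submitters' processing notes, and the aligner and its settings are not given in the sources used here. In each library 100% of values were whole multiples of 1 read (tolerance 0.01), which gave back the reads. Read counts of any 2 libraries of a group differed beyond sampling noise (chi-square per degree of freedom at least 14.6). No library was therefore treated as a repeat run of another, and each was counted as 1 replicate. The comparison cannot show that libraries came from separate animals. IDs were named from a RefSeq table of GRCm38.p6 (35336 of 36332).

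Genes above 1 CPM in as many libraries as the smallest group of the tissue were fitted as log2(CPM + 1) by limma 3.58.1 (R 4.3.3), with 4 groups per tissue, an intensity trend and Benjamini-Hochberg adjustment over all tested genes, threshold 0.05. The code was tested on simulated data. The planned test assumed normalized values, which the file holds, so limma stayed the main test. Log2 differences on this scale understate changes of low genes. The alternatives were a pseudocount of 0.1, TMM factors, edgeR on the recovered reads (0 to 9 genes called for KO against WT and 356 to 2466 for age), no filter, libraries left out, reads over the library's total and the replicate number as a block. Counting intervals are exact 95% Poisson intervals and cover counting error only. The members and all lists were chosen with earlier results of these data known. Genes named are the members, the neighbours that passed, list genes called for KO against WT, up to 2 called per list in WT ageing of a tissue, 4 substrain genes, Myc, and the 5 highest and 3 lowest r for each member.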

Additional observations from a re-analysis of the deposited data

How the results depend on the processing

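Neither member was called with a pseudocount of 0.1, TMM or edgeR. The members' KO against WT and age differences stayed within 1 SD of the main value except Nnt in young liver without the Xist libraries (-0.99). This limit is wide, and some signs changed within it. KO minus WT of Tmem267 in adipose tissue at 20 months went from -0.14 to 0.18 without K18F28. For Nnt in WT muscle, 20 minus 5 months went from -0.11 to 0.20 without W5S5004. Reads over the library's total were tried for the tissue differences alone: Nnt liver minus adipose tissue was 1.38 in WT and 1.504 in KO, and KO muscle minus adipose tissue 1.11; for Tmem267, WT liver minus adipose tissue was 0.10 and muscle minus adipose tissue 0.98, KO muscle minus adipose tissue 0.064, and KO liver minus adipose tissue reversed to -0.43. With 1 library allowed on a side, the widest space of Tmem267 was 0.46, 0.78 and 1.17 in adipose tissue, liver and muscle. Number of redox genes called: for KO against WT in young adipose tissue, 0 with a pseudocount of 0.1, TMM, edgeR, no filter or without the libraries with epididymis markers, and 5 without the Xist libraries. With age in WT adipose tissue it was 3 with no filter, 0 without Xist libraries and 16 without epididymis markers; in KO adipose tissue 0 with TMM, 1 with no filter, 7 without Xist libraries and 6 without epididymis markers. Without Xist libraries it was 3 in WT liver, 2 in KO liver and 1 in WT muscle, which had 2 with no filter. Calls over all genes also moved. For KO against WT in young adipose tissue they were 531 without Xist libraries, in place of 15. With age they were then 739 in WT and 3032 in KO adipose tissue, in place of 1539 and 2033. Without epididymis markers these were 3459 and 2555. Without Xist libraries they were 413 in WT liver, 567 in KO liver, 937 in WT muscle and 275 in KO muscle. The main fit had 929, 386, 2463 and 737. Neighbours called without Xist libraries were 1 for KO against WT in young adipose tissue, and with age 1 in WT adipose tissue, 2 in WT muscle and 0 in KO muscle. They were 6 in WT adipose tissue without epididymis markers, 1 in KO adipose tissue with no filter, 2 in WT liver with edgeR, and 3 in WT muscle with edgeR or no filter. Leaving out 1 library gave 0 to 1 redox genes for KO against WT in young adipose tissue. With age it gave 2 to 7 in WT adipose tissue, 0 to 7 in KO adipose tissue, 2 to 7 in WT liver, 0 to 1 in KO liver and 2 to 7 in WT muscle, and 1 to 3 neighbours in WT and in KO adipose tissue, 2 to 7 in WT muscle and 1 to 2 in KO muscle. TMM moved the genes called higher and lower for KO against WT in young adipose tissue from 5 and 10 to 5 and 6, with age in KO adipose tissue from 1497 and 536 to 1002 and 692, and with age in liver from 366 and 563 to 444 and 446 in WT, and from 217 and 169 to 255 and 117 in KO. The cause of these changes was not tested.

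Same-numbered libraries of different tissues had deviations correlated above 0.1 in 20 of 28 pairs (r from -0.24 to 0.40), with a median of 0.16 against -0.04 in the 164 other pairs, and 25 of 56 correlated best with their own number. All 12 recurring numbers had the same Xist status in each tissue. The labels do not say what a number marks and 8 pairs were not above 0.1, so the block stays an alternative. With the number as a replicate block, liver minus adipose tissue was 2.50 in WT and 2.63 in KO for Nnt and 1.08 and 0.53 for Tmem267, and no tissue difference moved by more than its spread.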
